A study of Mus musculus with 8 samples.

Results

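The genes described here are 4 inhibitors of cyclin-dependent kinases (Cdkn1a, Cdkn1b, Cdkn2a and Cdkn2b) and 6 other genes that p53 is known to induce (Mdm2, Ccng1, Trp53inp1, Zmat3, Sesn1 and Bax). Each was read from the row annotated to that 1 symbol, which gave 9 of the 10 genes, out of 14860 genes and 23332 rows in all, and Bax was not analysed here. RNA was measured on Affymetrix Mouse Exon 1.0 ST arrays in 4 lines of mouse keratinocytes, 2 arrays a line. The α3α9 line is MK546 with human integrin α3 and human integrin α9, the α3 line is MK546 with human α3, the α9 line is MK546 with human α9, and the null line is MK546 itself, whose cells came from newborn mice that lack α3. Human α3 was introduced by stable transfection and human α9 by retroviral transduction, each combination is represented by 1 line, and the labels do not say whether a line was cloned. All 4 lines were immortalized with SV40 large T antigen, so none is free of it. They grew at 33 °C and 8% CO2 on collagen, and the medium held 10 units of interferon-γ per ml, 10 ng of EGF per ml and calcium at 0.05 mM. It also held 0.4 µg of hydrocortisone per ml, 5 µg of insulin per ml and 4% serum.

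p53 is a transcription factor that is stabilized by DNA damage and other stress and then induces genes that stop the cell cycle, promote repair or lead to cell death. The Cip/Kip inhibitors p21 (Cdkn1a) and p27 (Cdkn1b) bind complexes of cyclins and kinases, while the Ink4 inhibitors p16 (from Cdkn2a) and p15 (Cdkn2b) bind Cdk4 and Cdk6 and keep the RB proteins active. Large T antigen binds p53 and the RB proteins and blocks their function, which is why it immortalizes cells. In epidermis p21 and p27 are known for their part in the exit from the cell cycle at the start of differentiation.

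The sequence that p53 binds is 2 copies of a decamer, the p53 decamer consensus, which reads the same on both strands. RefSeq promoter windows of GRCm38.p6, from 250 bases before to 50 bases after an annotated start, were found for 8 of the 10 genes, in 11 windows. A p53 decamer was present in 5 of the 11 windows, against 8.36% of all 32851 windows, and a pair of adjacent decamers with at most 1 mismatch in 20 bases was present in 2, against 0.0883% of all windows. That rule on mismatches was set with these sequences in view, and a match is a description of letters, not of binding. The 2 windows with a pair are printed with every match in capitals, since both genes are known p53 targets. The first lies at the more distal of 2 annotated Cdkn1a starts, chr17:29090729-29091028 on the plus strand, and its pair runs from base -51 to base -32 relative to that start. The second is the Ccng1 window, chr11:40755237-40755536 on the minus strand, with its pair from base -195 to base -176.
Cdkn1a distal start: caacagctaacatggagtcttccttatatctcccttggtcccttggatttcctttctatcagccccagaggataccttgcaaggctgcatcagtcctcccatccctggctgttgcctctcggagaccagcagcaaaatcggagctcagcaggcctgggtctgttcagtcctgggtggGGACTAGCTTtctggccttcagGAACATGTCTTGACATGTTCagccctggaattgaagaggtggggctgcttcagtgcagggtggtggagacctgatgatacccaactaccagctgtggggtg
Ccng1: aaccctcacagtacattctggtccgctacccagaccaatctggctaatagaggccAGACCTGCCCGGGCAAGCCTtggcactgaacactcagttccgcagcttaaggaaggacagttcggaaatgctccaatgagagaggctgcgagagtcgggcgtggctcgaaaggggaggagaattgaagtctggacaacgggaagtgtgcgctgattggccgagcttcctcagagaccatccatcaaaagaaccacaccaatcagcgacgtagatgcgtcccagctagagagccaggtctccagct
Single decamers were present in the windows of Mdm2, Bax and the more downstream Sesn1 start, as follows.
Mdm2: GAACTTGCCT
Sesn1: AAGCTTGTTT
Bax: AGGCAAGCTT
No decamer was found in the windows of Cdkn1b, Cdkn2a, Cdkn2b or the proximal Cdkn1a start.

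Values are the deposited intensities on a linear scale. They depend on each row's probes, so 1 gene's level was not set against another's. Changes are log2 differences of intensity + 16 with their SE, and adjusted p is from limma in 1 fit over all 8 arrays, adjusted over all 23332 rows, with a threshold of 0.05. Array medians ran from 82.8 to 127, and these 2 extremes are replicates 1 and 2 of the α3α9 line. Changes are therefore also given after quantile normalization, which sets all arrays to 1 distribution. The null and α3 arrays are marked as re-analysis in their titles and the others are not, so a comparison of lines with and without α9 cannot be told apart from a comparison of these sets. Nothing in the labels says that the 2 arrays of a line came from different cultures, so the p-values here reflect array-to-array spread that may be technical. The probed mouse genes Itga3 and Itga9 do not check the human subunits. Itga3 averaged 1245 ± 91.3 in the α3 line and 971 ± 52.5 in the null line (SD, n = 2 each), a change of 0.35 (limma adjusted p = 0.768). It averaged 1089 ± 381 in the α3α9 line and 954 ± 256 in the α9 line (0.17, adjusted p = 0.921). Itga9 passed in no comparison on the deposited scale. After normalization it passed between the α3α9 and α3 lines alone (0.41, adjusted p = 0.0429), where 10.1% of all rows rose. The summed intensity of 6 measured keratinocyte markers was 34228 to 36762 in the α3α9 line, 33593 to 34846 in the α3 line, 41896 to 42283 in the α9 line and 37715 to 38800 in the null line. Krt5 and Krt14 weigh most in these sums, at 13536 and 11142 on average in the α3 line. None of the 6 passed limma's test on the deposited scale. All 6 changes were below 0 in both comparisons with α3, on both scales. After normalization 3 fell between the α3 and null lines and 2 between the α3α9 and α9 lines, against 3.76% and 4.3% of all rows. Between the α9 and null and the α3α9 and α3 lines 1 fell each, against 8.32% and 8.77%. None rose. Of the fibroblast, melanocyte, leukocyte and endothelial markers, 4 of 8, 4 of 5, 4 of 5 and 5 of 6 lay under the array median on every array. The endothelial sum was 284 to 397 in the α3α9 line, 226 to 272 in the α3 line, 212 to 258 in the α9 line and 208 to 225 in the null line, and the other 3 sums lay between 208 and 875. Of these 4 lists Flt1, an endothelial receptor of VEGF, was the 1 gene that passed on the deposited scale, higher in the α3α9 line than in the α9 line by 1.23 ± 0.21 (limma adjusted p = 0.0174), where 1.05% of all rows rose. After normalization Flt1 passed there (1.23), between the α3 and null lines (0.75) and between the α3α9 and α3 lines (0.56), the fibroblast marker Dcn was higher in the α9 line than in the null line (0.43), and the leukocyte marker Csf1r was higher in the α3α9 line than in the α3 line (0.56). Of all rows 5.67% rose after normalization between the α3α9 and α9 lines and 4.48% between the α3 and null lines. The share was 8.85% between the α9 and null lines and 10.1% between the α3α9 and α3 lines. The part of other cells in the results was not tested, and in bulk RNA fewer cells of a type and less RNA per cell cannot be told apart.

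Of the 9 genes, Trp53inp1 and Zmat3 had the widest ranges of line means, and both were lowest in the null line. Trp53inp1 encodes a nuclear protein that promotes p53 activity and autophagy. Its intensities were 2474 and 3503 in the α3α9 line, 1651 and 1611 in the α3 line, 1572 and 1139 in the α9 line, and 543 and 583 in the null line. The 4 lines did not overlap, in the order α3α9, α3, α9 and null, and the highest mean was 5.31 times the lowest.

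Trp53inp1 rose with α3 in both comparisons, by 1.51 ± 0.24 between the α3 and null lines (log2, limma adjusted p = 0.0141) and by 1.13 ± 0.24 between the α3α9 and α9 lines (adjusted p = 0.0499). After quantile normalization these changes were 1.45 ± 0.12 and 1.21 ± 0.12 (adjusted p = 0.00137 and 0.00252). It was also higher in the α9 line than in the null line, by 1.23 ± 0.24 (adjusted p = 0.0236), and by 1.00 ± 0.12 after normalization (adjusted p = 0.00394). With a pseudocount of 1 in place of 16, none of the 3 calls on the deposited scale was kept (adjusted p = 0.0744, 0.167 and 0.0833). Between the α3α9 and α3 lines the change was 0.85 ± 0.24, which passed after quantile normalization (0.75, adjusted p = 0.00826) and not on the deposited scale (adjusted p = 0.0877). On the deposited scale the first rise with α3 was lost when either null array or either α3 array was left out, with adjusted p up to 0.145. The second was kept only without α3α9 replicate 1 (1.38, adjusted p = 0.0314) and lost without each of the 7 other arrays, with adjusted p up to 0.343. The rise with α9 over the null line was lost without either null array or α9 replicate 1, with adjusted p up to 0.177, and the change between the α3α9 and α3 lines passed without α3α9 replicate 1 (1.10, adjusted p = 0.0336). After quantile normalization the first 3 changes passed without each of the 8 arrays in turn, and the fourth was lost without α3 replicate 1 (adjusted p = 0.0577).

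Zmat3 encodes a zinc finger protein that binds RNA and is induced by p53. Zmat3 gave 1003 and 1299.8 in the α3α9 line, 683 and 574 in the α3 line, 874 and 688 in the α9 line, and 325 and 339.9 in the null line. As for Trp53inp1 no pair of neighbouring lines overlapped, but here the α9 line stood above the α3 line. The rise in the α9 line over the null line was 1.18 ± 0.22 (limma adjusted p = 0.0205), and 0.98 ± 0.09 after quantile normalization (adjusted p = 0.00257). It was lost on the deposited scale with a pseudocount of 1 (adjusted p = 0.0735). The other changes passed only after quantile normalization. They were 0.84 between the α3 and null lines (adjusted p = 0.00471, against 0.125 on the deposited scale), 0.54 between the α3α9 and α9 lines (0.0169, against 0.371) and 0.68 between the α3α9 and α3 lines (0.00547, against 0.0715). The rise in the α9 line was lost on the deposited scale without either null array or either α9 array, with adjusted p up to 0.167. Without α3α9 replicate 1 the change between the α3α9 and α3 lines passed there too (1.04, adjusted p = 0.0345). After normalization the change between the α3α9 and α9 lines was lost without either α9 array or α3α9 replicate 1, with adjusted p up to 0.0995, and the other 3 passed without each array.

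**Figure D1:**
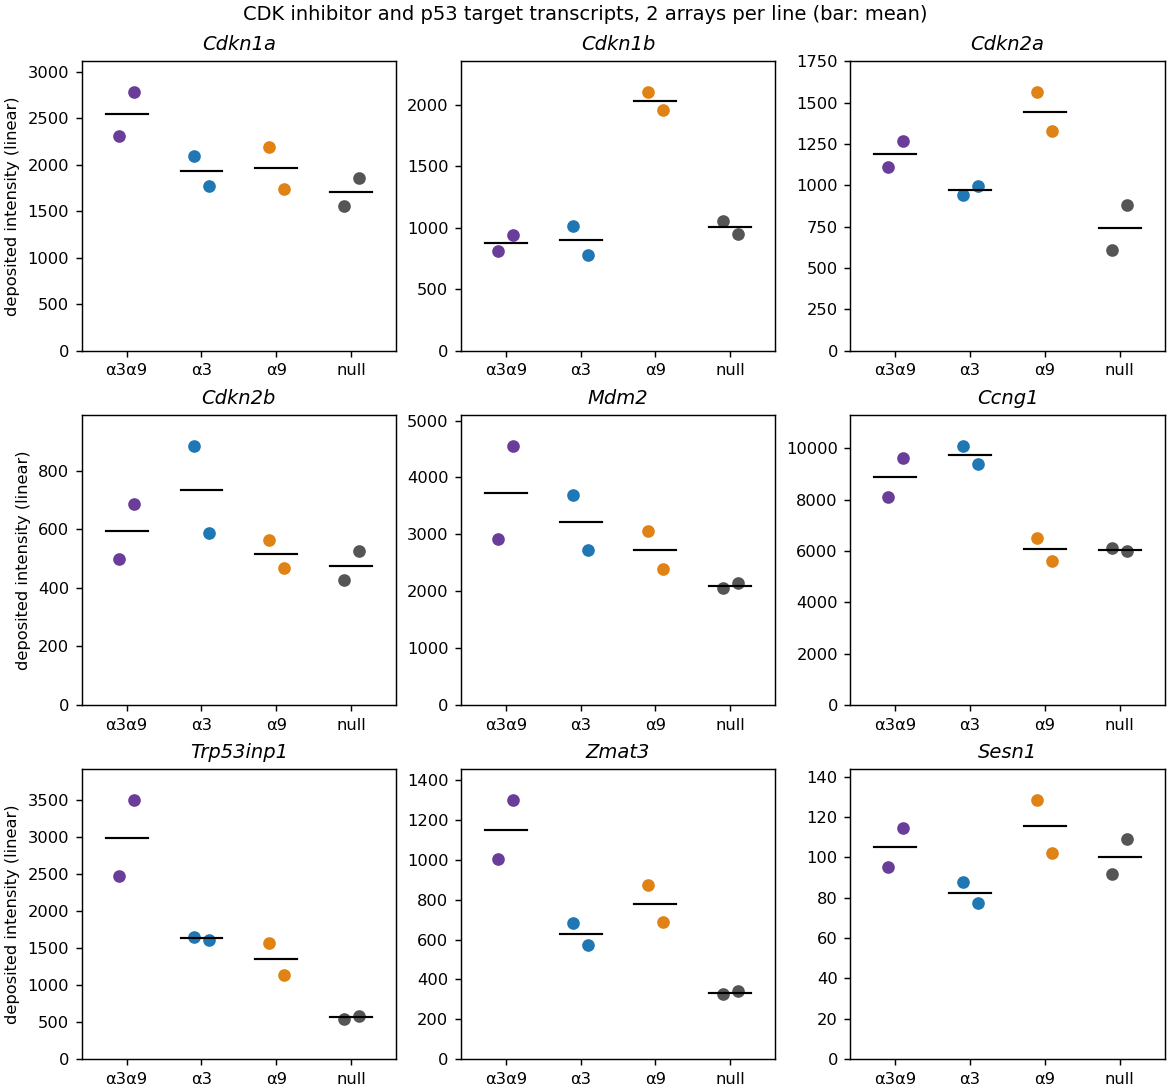
Deposited intensity (linear axis from 0) of 9 CDK inhibitor and p53 target transcripts in the α3α9, α3, α9 and null lines; points are the 2 arrays of a line and bars their mean. Trp53inp1 and Zmat3 are lowest in the null line, Ccng1 is higher in both lines with α3, and Cdkn1b stands at 2105 and 1956 in the α9 line alone.

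Ccng1, which encodes cyclin G1, a p53 target that recruits a phosphatase to Mdm2, was higher on every array of the lines with α3. Its intensities were 8111 and 9621 in the α3α9 line and 10085 and 9396 in the α3 line, against 6516 and 5624 in the α9 line and 6129 and 5984 in the null line. The groups with and without α3 did not overlap, while the lines within each did. On the deposited scale neither change with α3 passed, at 0.68 ± 0.20 without α9 (limma adjusted p = 0.202) and 0.54 ± 0.20 with it (adjusted p = 0.298). After quantile normalization they were 0.66 ± 0.11 and 0.62 ± 0.11 and both passed (adjusted p = 0.0175 each). Without single arrays of the compared lines the adjusted p after normalization reached 0.109 and 0.103. The changes with α9 were -0.00 ± 0.20 and -0.14 ± 0.20, with 95% intervals from -0.45 to 0.45 and from -0.59 to 0.31. After normalization they were -0.13 and -0.17, and neither passed.

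Mdm2 encodes the ubiquitin ligase that marks p53 for degradation and is itself induced by p53. It gave 2915 and 4549 in the α3α9 line, 3699 and 2728 in the α3 line, 3060 and 2382 in the α9 line, and 2047 and 2145 in the null line. The null arrays lay below all others, while the 3 other lines overlapped. No comparison passed. The change between the α3 and null lines was 0.60 ± 0.27 (adjusted p = 0.473) and 0.56 ± 0.14 after quantile normalization (adjusted p = 0.0623), and that between the α3α9 and α9 lines was 0.43 ± 0.27 (0.644) and 0.53 ± 0.14 (0.0676). 

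Sesn1, which encodes a sestrin that restrains the growth kinase complex mTORC1, lay near the array medians and had the narrowest range of line means of the 9. It gave 95.5 and 115 in the α3α9 line, 87.6 and 77.4 in the α3 line, 128 and 102 in the α9 line, and 91.6 and 109 in the null line. The α3 arrays were the lowest. No comparison of Sesn1 passed on either scale, and the change between the α3 and null lines was -0.24 ± 0.21 (95% interval -0.71 to 0.23).

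Among the CDK inhibitors, Cdkn1b stood apart in 1 line. It gave 812 and 945 in the α3α9 line, 1019.8 and 782 in the α3 line, 2105 and 1956 in the α9 line, and 1056 and 952 in the null line. The α9 arrays lay above all others. The α3 arrays overlapped both the α3α9 and the null arrays, which did not overlap each other. Cdkn1b was lower in the α3α9 line than in the α9 line by -1.20 ± 0.21 (limma adjusted p = 0.0213), and higher in the α9 line than in the null line by 1.01 ± 0.21 (adjusted p = 0.0305). After quantile normalization these were -1.18 ± 0.14 (adjusted p = 0.00557) and 0.76 ± 0.14 (adjusted p = 0.0162), and the first passed without each of the 8 arrays in turn. With a pseudocount of 1 neither passed on the deposited scale (adjusted p = 0.0932 and 0.0897). On the deposited scale the first was lost without either α9 array (adjusted p = 0.108 and 0.106) or α3α9 replicate 1 (0.055), and the second without each of the 6 null, α3 and α9 arrays, with adjusted p up to 0.23, and after normalization without null replicate 2 or either α9 array, with adjusted p up to 0.0937. Between the α3 and null lines the change was -0.16 ± 0.21 (adjusted p = 0.911). The difference between the 2 changes with α3, the interaction, was -1.03 ± 0.30 and did not pass (adjusted p = 0.528, and 0.102 after quantile normalization), so a dependence on α9 was not shown.

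Protein levels of p27 are set largely by ubiquitin-dependent turnover, through the Skp2 ligase. Of 5 measured genes of p27 turnover none passed limma's test on the deposited scale in any comparison. Between lines 0 to 2 had an unadjusted p under 0.05, against 10.6% to 20.1% of all rows. Skp2 averaged 311 ± 153 in the α9 line and 579 ± 45.8 in the null line (-0.94 ± 0.34, limma adjusted p = 0.152). After quantile normalization 1 of the 5 rose and 1 fell in that comparison, Rnf123, which encodes a subunit of the KPC ubiquitin ligase (0.58, adjusted p = 0.0191, against 0.77 and 0.0783 on the deposited scale), and Skp2 (-1.11, adjusted p = 0.0231). Of all rows 8.85% rose and 8.32% fell there. Between the α3α9 and α3 lines Rnf123 rose too (0.59, limma adjusted p = 0.0174) and Skp1 fell (-0.67, adjusted p = 0.0415), against 10.1% and 8.77%. Rnf123 averaged 371 ± 65.5 in the α3α9 line and 402 ± 67.3 in the α9 line. Cdkn1c, which encodes p57, the other Cip/Kip inhibitor, averaged 128 ± 24.3 in α3α9 cells, 134 ± 41.3 in α3 cells, 296 ± 48.9 in α9 cells and 209 ± 15.0 in null cells. Its change between the α3α9 and α9 lines was -1.12 ± 0.25 (adjusted p = 0.0617), and -1.11 after quantile normalization (adjusted p = 0.00983). Between the α3 and null lines it was -0.61 ± 0.25 (limma adjusted p = 0.414), and -0.75 after normalization (adjusted p = 0.0392).

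Cdkn1a, the best known target of p53, had a narrow range, its highest line mean being 1.49 times its lowest. It gave 2308 and 2784 in the α3α9 line, 2092 and 1779 in the α3 line, 2196 and 1740.1 in the α9 line, and 1563 and 1862 in the null line. The α3α9 arrays were the highest and the other lines overlapped. On the deposited scale its changes ran from 0.18 to 0.39 and none passed. After quantile normalization Cdkn1a rose by 0.45 ± 0.11 between the α3α9 and α9 lines (limma adjusted p = 0.0435), a call that was lost without any 1 of the 8 arrays, with adjusted p up to 0.199. Between the α3 and null lines the change was 0.18 ± 0.22, with a 95% interval from -0.32 to 0.67.

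Cdkn2a was read by 1 row, so its products p16 and p19Arf, an inhibitor of Mdm2, were not separated. It gave 1111 and 1265 in the α3α9 line, 944 and 996 in the α3 line, 1564 and 1328 in the α9 line, and 608 and 879.7 in the null line. No neighbouring lines overlapped in the order α9, α3α9, α3 and null. Cdkn2a was higher in the α9 line than in the null line by 0.96 ± 0.23 (limma adjusted p = 0.0475), and by 0.74 ± 0.18 after quantile normalization (adjusted p = 0.0386). On the deposited scale that call was lost with a pseudocount of 1 (adjusted p = 0.119). It was also lost without each of the 6 arrays of the null, α3 and α9 lines, with adjusted p up to 0.418, and after normalization without 5 of the 8 arrays, with adjusted p up to 0.174. No other comparison of Cdkn2a passed on either scale.

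Cdkn2b, which lies beside Cdkn2a, gave 498 and 687 in the α3α9 line, 883 and 586 in the α3 line, 564 and 466 in the α9 line, and 425 and 526 in the null line. Neighbouring lines overlapped throughout, and no comparison passed on either scale. The change nearest to the threshold on the deposited scale was that between the α3 and null lines, 0.59 ± 0.26 (adjusted p = 0.472), in which the arrays of the 2 lines did not overlap. Mtap, the neighbour of Cdkn2a on the other side, averaged 2416 ± 530 in α3α9 cells, 3395 ± 378 in α3 cells, 2146 ± 281 in α9 cells and 2483 ± 87.7 in null cells. It passed in no comparison on the deposited scale and in 3 after quantile normalization, at 0.40 between the α3 and null lines (adjusted p = 0.0441), -0.43 between the α9 and null lines (0.0232) and -0.58 between the α3α9 and α3 lines (0.00836). Dmrta1, next beyond Cdkn2b, was dim, with means from 23.2 to 36.1.

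**Figure D2:**
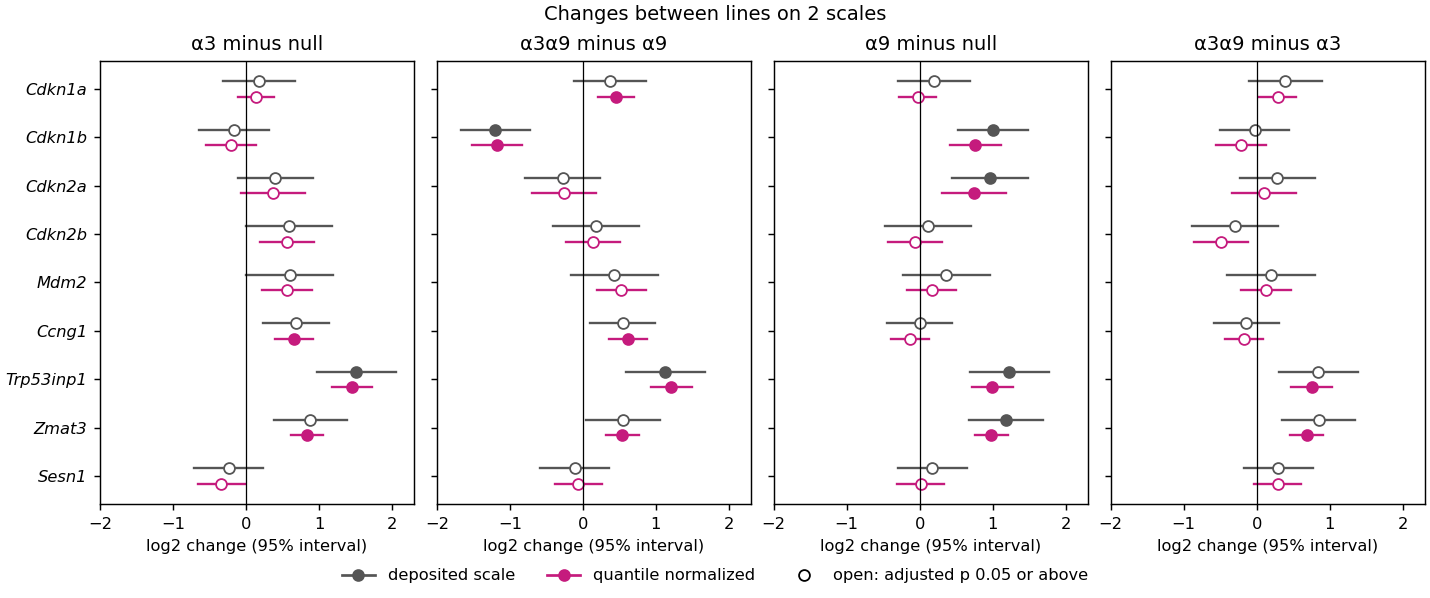
Log2 change with its 95% interval of each of the 9 genes in 4 comparisons, on the deposited scale (grey) and after quantile normalization (magenta); filled points have an adjusted p under 0.05 in limma. Intervals are narrower after normalization, and Trp53inp1 and Zmat3 are filled in all 4 comparisons there.

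Counted over the 9 genes, 1 rose between the α3 and null lines (Trp53inp1), where 0.947% of all rows rose and 0.351% fell. After quantile normalization 3 rose (Ccng1, Trp53inp1 and Zmat3), against 4.48% of all rows, and none fell, against 3.76%. Between the α3α9 and α9 lines 1 rose (Trp53inp1) and 1 fell (Cdkn1b), against 1.05% and 0.823% of all rows. After quantile normalization 4 rose (Cdkn1a, Ccng1, Trp53inp1 and Zmat3) and 1 fell (Cdkn1b), against 5.67% and 4.3%. These 2 comparisons share no array, although they share 1 estimate of the spread. Trp53inp1 rose in both, as did 0.489% of all rows, and after normalization Trp53inp1, Zmat3 and Ccng1 did, as did 2.04% of all rows.

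Between the α9 and null lines 4 of the 9 rose (Cdkn1b, Cdkn2a, Trp53inp1 and Zmat3) on both scales, against 3.5% of all rows on the deposited scale and 8.85% after quantile normalization. None of the 9 fell, against 0.823% and 8.32% of all rows. The median change of all rows in that comparison was 0.16 on the deposited scale and 0.00 after normalization. The gap between the scales differed between genes, as in Ccng1 (-0.00 and -0.13) and Cdkn1b (1.01 and 0.76). Between the α3α9 and α3 lines none of the 9 passed limma's test on the deposited scale, where 2.14% of all rows rose and 1.14% fell. There 2 of the 9 had an unadjusted p under 0.05, as did 19.9% of all rows. After quantile normalization 2 rose (Trp53inp1 and Zmat3), against 10.1%, and none fell, against 8.77%. These comparisons share arrays with the first 2. In the interaction none of the 9 passed on either scale, where 0.0857% and 0.737% of all rows did. An unadjusted p under 0.05 was found for 1 and 2 of the 9, and for 5.7% and 15.7% of all rows.

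With 2 arrays a line, arrays that do not overlap are common in this table. The α3 arrays lay above the null arrays for 6 of the 9 genes and below for 1, against 27.3% and 23.5% of all rows. The α3α9 arrays lay above the α9 arrays for 4 and below for 2, against 11.6% and 18% of all rows. The α9 arrays lay above the null arrays for 5 and below for 0, against 45.5% and 13.9% of all rows, and the α3α9 arrays above the α3 arrays for 5 and below for 0, against 29% and 13.1%.

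All rows include dim and unlisted ones, and 7.09% to 14.1% of the rows of an array lay under 16. No value of the 9 genes lay under 77.4, so all rows are not matched to them in intensity. The median change of the 9 genes between the α3 and null lines was 0.59, against 0.01 over all rows. It was 0.37 against -0.06 between the α3α9 and α9 lines, 0.36 against 0.16 between the α9 and null lines, and 0.29 against 0.10 between the α3α9 and α3 lines. After quantile normalization these medians were 0.56 against -0.04, 0.45 against -0.01, 0.16 against 0.00 and 0.13 against 0.04. By limma's moderated F-test for any difference among the 4 lines, 3 of the 9 passed (Cdkn1b, Trp53inp1 and Zmat3, adjusted p = 0.0152, 0.00184 and 0.00581), against 10.4% of all rows. After quantile normalization 6 did, with Cdkn1a, Mdm2 and Ccng1 added, against 31.8%.

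Other p53 targets were taken from a list of 33 genes, of which 27 were measured. Between the α3 and null lines 2 rose and none fell, against 0.947% and 0.351% of all rows, and after quantile normalization 9 rose and 2 fell, against 4.48% and 3.76%. Fas, a death receptor, averaged 320 ± 55.7 in the α3 line and 87.7 ± 2.84 in the null line (1.69 ± 0.26, limma adjusted p = 0.0115). Eda2r, a receptor of the TNF receptor family, averaged 1758 ± 130.1 in the α3 line and 607 ± 44.3 in the null line (1.51 ± 0.26, adjusted p = 0.0217). After normalization these 2 changes were 1.65 and 1.46. Without single arrays 0 to 3 of the 27 rose on the deposited scale, and 2 to 6 after quantile normalization.

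Between the α3α9 and α9 lines 2 of the 27 rose and 1 fell, against 1.05% and 0.823% of all rows, and 8 and 2 did after quantile normalization, against 5.67% and 4.3%. Btg2, an antiproliferative regulator of transcription and mRNA decay, averaged 1433 ± 339 in the α3α9 line and 631 ± 67.7 in the α9 line (1.15 ± 0.23, limma adjusted p = 0.0354). Sesn2, a sestrin like Sesn1, averaged 879 ± 48.7 and 446 ± 26.2 in these lines (0.95 ± 0.20, adjusted p = 0.0454). Dram1, a lysosomal membrane protein that promotes autophagy, fell to 232 and 368 in the α3α9 line, against 772 and 1036 in the α9 line (-1.56 ± 0.27, adjusted p = 0.018). After normalization these 3 changes were 1.15, 0.91 and -1.59, and all passed. Without single arrays 0 to 5 rose and 0 to 2 fell on the deposited scale.

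Between the α9 and null lines 2 of the 27 rose and none fell, against 3.5% and 0.823% of all rows. Pmaip1, which encodes the proapoptotic protein Noxa, averaged 1706 ± 154 in the α9 line and 522 ± 82.3 in the null line (1.68 ± 0.23, limma adjusted p = 0.00571). Gadd45a, a growth arrest and DNA damage gene, averaged 2927 ± 248 and 1321 ± 239 in these lines (1.15 ± 0.24, adjusted p = 0.0279). After quantile normalization these 2 changes were 1.45 and 0.93, and 9 of the 27 rose and 1 fell, against 8.85% and 8.32% of all rows. None passed limma's test between the α3α9 and α3 lines on the deposited scale, where 10 of the 27 and 19.9% of all rows had an unadjusted p under 0.05. After normalization 7 rose and 3 fell there, against 10.1% and 8.77%. As in the comparisons with α3, these counts of the 27 moved on both scales when single arrays were left out. The median of the 27 on the deposited scale was 0.39 between the α3 and null lines, 0.24 between α3α9 and α9, 0.41 between α9 and null and 0.41 between α3α9 and α3, against 0.01, -0.06, 0.16 and 0.10 over all rows. After normalization it was 0.34, 0.22, 0.22 and 0.24, against -0.04, -0.01, 0.00 and 0.04.

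**Figure D3:**
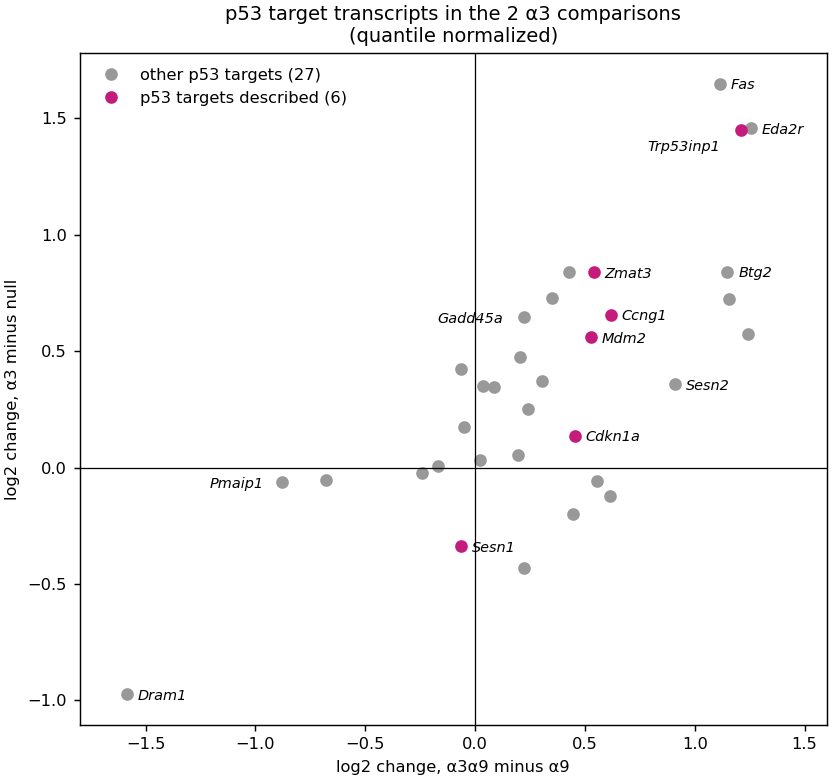
Log2 change after quantile normalization of 33 p53 target transcripts in the 2 comparisons with α3: α3α9 minus α9 on the horizontal axis, α3 minus null on the vertical axis. Magenta points are Cdkn1a, Mdm2, Ccng1, Trp53inp1, Zmat3 and Sesn1, grey points the 27 other targets, with those named that passed on the deposited scale; Fas, Eda2r and Trp53inp1 lie farthest up and Dram1 lies below 0 on both.

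Of 16 measured genes of the p53 family and its regulators, 1 fell between the α3 and null lines on the deposited scale, against 0.351% of all rows. After quantile normalization 2 rose and 4 fell, against 4.48% and 3.76%. The 1 on the deposited scale was Sirt1, a deacetylase that acts on p53, at 356 ± 25.4 in the α3 line and 868 ± 40.1 in the null line (-1.25 ± 0.24, limma adjusted p = 0.0363, and -1.30 after normalization). Mdm4, a relative of Mdm2 that inhibits p53, passed in both comparisons with α3 after normalization (0.83 and 0.91, adjusted p = 0.0236 and 0.0146) and in neither on the deposited scale (0.87 and 0.88, adjusted p = 0.253 and 0.207). Hipk2, a kinase that phosphorylates p53, was higher with α9 in both comparisons, by 1.00 ± 0.22 (adjusted p = 0.043) where cells with both subunits, at 566 ± 131, were set against the α3 line, at 270.4 ± 5.08. The rise was 1.39 ± 0.22 (adjusted p = 0.0111) where α9 cells, at 623 ± 67.2, were set against null cells, at 228 ± 23.0. After normalization these were 0.85 and 1.18, and both passed. In each of these 2 comparisons 4 of the 16 rose and 2 fell after normalization. Of all rows 10.1% rose and 8.77% fell between the α3α9 and α3 lines, and 8.85% and 8.32% between the α9 and null lines. None of the 16 passed between the α3α9 and α9 lines on the deposited scale, where 5 had an unadjusted p under 0.05, as did 11.6% of all rows. There 2 rose and 5 fell after quantile normalization, against 5.67% and 4.3% of all rows. Trp53 itself was not analysed here. Trp63, which encodes p63, the member of the p53 family that marks basal keratinocytes, fell by 0.58, 0.69, 0.48 and 0.59 on the log2 scale in the 4 comparisons after quantile normalization (adjusted p = 0.0242, 0.0116, 0.0247 and 0.0121), taken in the order α3 against null, α3α9 against α9, α9 against null and α3α9 against α3. On the deposited scale the same changes were -0.56, -0.67, -0.28 and -0.38, and none passed (adjusted p from 0.234 to 0.534).

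Bax belongs to the BCL2 family, and all 12 listed relatives were measured. Between the α3α9 and α9 lines 2 rose, Bcl2l11, which encodes the proapoptotic protein Bim (354 ± 91.8 against 127 ± 40.2, 1.38 ± 0.26, limma adjusted p = 0.0252), and Bcl2l1, whose main product is the antiapoptotic protein Bcl-xL (1191 ± 152 against 516 ± 44.6, 1.18 ± 0.20, adjusted p = 0.0169). Bok, a relative of Bax, was lower in the α3α9 line than in the α3 line (465 ± 77.0 against 1069 ± 83.5, -1.18 ± 0.21, adjusted p = 0.0197). No gene of the family passed between the α3 and null or the α9 and null lines on the deposited scale. There 4 and 2 had an unadjusted p under 0.05, as did 10.6% and 20.1% of all rows. After normalization 3 rose between the α3 and null lines, Bcl2l11 (0.98, and 1.07 on the deposited scale), Bcl2l1 (0.91, and 0.95) and the proapoptotic Bid (0.53, and 0.57), with adjusted p of 0.00822, 0.00822 and 0.0252. These 3 also rose between the α3α9 and α9 lines (1.32, 1.16 and 0.47). Between the α9 and null lines 3 fell (Bok, Bad and Bcl2), and between the α3α9 and α3 lines 1 rose (Bcl2l2) and 4 fell (Bok at -1.38, Bcl2, Mcl1 and Bad). Another list of 10 genes held CDKs and cyclins of the G1 and S phases, and Cdc25a. Of these, Ccna2, which encodes the S-phase cyclin A2, was the 1 that passed on the deposited scale, at 1758 ± 376 in the α3α9 line and 3580.1 ± 55.2 in the α9 line (-1.04 ± 0.22, adjusted p = 0.0454, and -0.99 after quantile normalization, adjusted p = 0.00205). After normalization 0 of the 10 rose and 1 fell between the α3 and null lines, 2 rose and 2 fell between the α3α9 and α9 lines, 1 rose and 2 fell between the α9 and null lines, and 1 rose and 4 fell between the α3α9 and α3 lines. Cdc25a, a phosphatase that activates CDKs, fell in all 4 there (-0.76, -0.53, -0.61 and -0.38), and Ccne2, which encodes cyclin E2, was lower with α9 in both comparisons (-1.24 and -1.53, adjusted p = 0.0078 and 0.00409). None of 11 RB and E2F genes, 12 genes that neighbour or regulate the Ink4 locus or 2 other CDK inhibitors passed limma's test on the deposited scale. In single comparisons 2 to 3, 0 to 3 and 0 to 1 of them had an unadjusted p under 0.05, against 10.6% to 20.1% of all rows. After normalization the RB and E2F genes gave 1 rise and 4 falls between the α3 and null lines, 1 and 2 between the α3α9 and α9 lines, 2 and 3 between the α9 and null lines, and 3 and 1 between the α3α9 and α3 lines. The Ink4 list gave 2 and 0, 0 and 2, 2 and 1, and 0 and 1 in the same order. Of the 2 other CDK inhibitors 1 fell in each comparison with α3, Cdkn1c. Over all rows 4.48% rose and 3.76% fell, then 5.67% and 4.3%, 8.85% and 8.32%, and 10.1% and 8.77%, in the same order. These shares apply to the normalized counts of every list in this paragraph. On the deposited scale 1.05% of all rows rose and 0.823% fell between the α3α9 and α9 lines, and 1.14% fell between the α3α9 and α3 lines.

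The genes with the most similar course over the 8 arrays were found among 8513 genes with a mean log2 value of at least 7, by the root mean square difference of log2 values centred on each gene's mean. Nearest to Trp53inp1 were Gne (0.10), Car13 (0.12), Sdk2 (0.13), Dcxr (0.14) and Ccdc9b (0.16), and all 5 stayed among the nearest 7 after quantile normalization. Nearest to Cdkn1a were Zfp414, Cdc42se2, Coasy, Abhd5 and Efhd2, with differences from 0.05 to 0.06. After normalization Zfp414 ranked 100 and the other 4 ranked from 2 to 13. The points share the scale of each array.

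**Figure D4:**
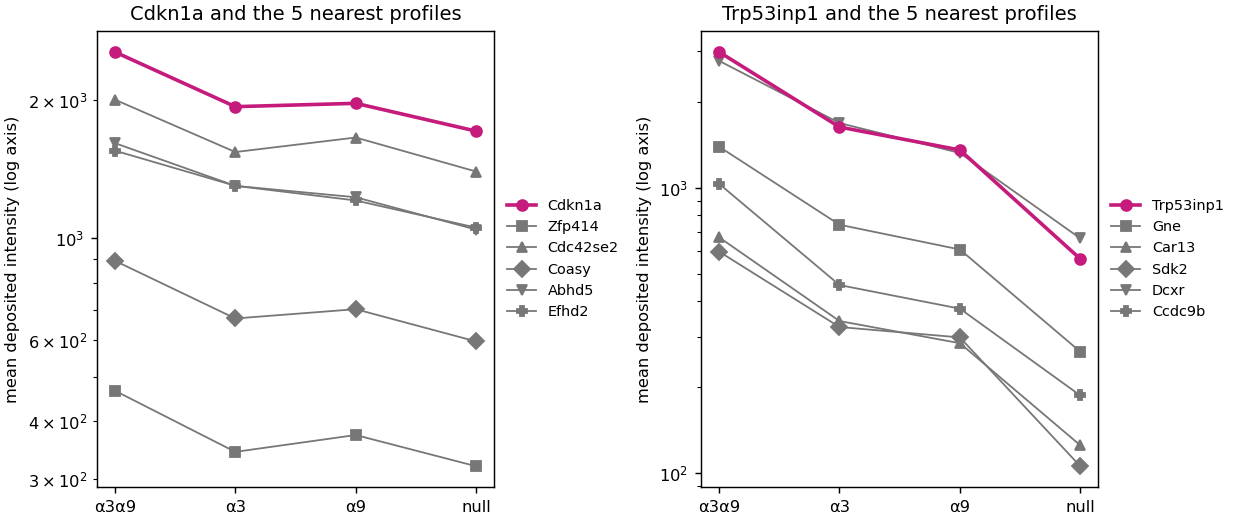
Mean deposited intensity (log axis) in the α3α9, α3, α9 and null lines of Cdkn1a (left) and Trp53inp1 (right), each with the 5 genes nearest to it over 8 arrays (grey). Gne averaged 1392 in the α3α9 line and 266 in the null line, a course like that of Trp53inp1 at 2988 and 563.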

How the data were processed

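The deposited table gives 1 value per transcript cluster, here a row, for each array. The authors computed these intensities with Expression Console and its PLIER method, per the submitters' processing notes; the design text adds the Exon Array Computational Tool. Not given in the sources used here were software versions, build and filters. Arrays have no read depth, so their number limits the precision. Samples were grouped by title.

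Gene names came from the platform annotation, updated by Entrez number to the RefSeq table of GRCm38.p6 (14805 of 14860 genes matched). Of 23332 rows, 14996 had 1 gene, 1019 several and 7317 were unlisted. A gene with several rows was read from the brightest, and none of the 9 measured genes had several. Values were taken as log2(intensity + 16) of the deposited intensities and fitted with limma 3.58.1 in R 4.3.3, with a mean per line, 4 residual degrees of freedom and Benjamini-Hochberg adjustment over all rows within each test. The 10 genes were named whatever their values, with up to 4 genes that passed from each other list, the 5 nearest profiles, Mtap, Dmrta1, Itga3 and Itga9. Genes that passed only after normalization, such as Skp2, Cdkn1c and Trp63, were picked with their values in view. The genes and lists were chosen with earlier results of these data known. Tested on simulated data with 200 changed rows of 23332, the α3 minus null comparison recovered 94.5% of 4-fold changes but 0% of those of 2-fold. These recoveries apply to that setting alone. On the deposited scale Cdkn1b passed between the α9 and null lines at a log2 change of 1.01. Deviations of arrays with the same replicate number correlated between -0.21 and 0.07 across lines, so the numbers were not taken to pair arrays.

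Alternatives were 3 other scalings, pseudocounts of 1 and 64, omission of the lowest 25% of rows, eBayes with a trend or made robust, a block for replicate number, fits on the 2 lines compared, and omission of single arrays, where the line left with 1 array was assumed to vary like the others. Chosen after seeing the data were a crossed block and counts of the other p53 targets without single arrays. Plots used Python 3.11.15 and matplotlib 3.10.9.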

Additional observations from a re-analysis of the deposited data

How the results depend on the processing

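No value of the 9 genes that passed under some setting changed sign there. Of 1215 values of single genes under an alternative, 1093 kept their side of the threshold, 67 passed where the reported value did not and 55 no longer passed. As reported, 1 of the 9 genes passed between the α3 and null lines, 2 between α3α9 and α9, 4 between α9 and null, 0 between α3α9 and α3 (2 at an unadjusted p under 0.05, as were 19.9% of all rows), and 3 in the F-test. Later counts keep that order. Quantile normalization gave 3, 5, 4, 2 and 6, centring on array medians 3, 4, 4, 2 and 5, and scaling to a common median 2, 4, 3, 2 and 5. A pseudocount of 1 gave 0, 0, 0, 0 and 2 in limma, with 3, 3, 4 and 2 genes at an unadjusted p under 0.05 in the 4 comparisons, and a pseudocount of 64 gave 1, 2, 4, 1 and 5. The share of all rows at an unadjusted p under 0.05 is not given here for a pseudocount of 1. Omitting the lowest 25% of rows gave 1 call between the α3α9 and α3 lines, and an intensity trend gave 2 between the α3 and null lines. The replicate block gave 1, 1, 2, 0 and 3, and with quantile normalization 3, 4, 3, 2 and 4; it ended the calls of Trp53inp1 between the α3α9 and α9 lines (adjusted p = 0.0778) and of Cdkn1b and Cdkn2a between the α9 and null lines (0.0568 and 0.0758). Crossing the numbers of the α3α9 and α9 lines gave 2 calls. The 2 compared lines alone gave 1, 1, 3 and 0. Omitting single arrays gave 0 to 1, 0 to 1, 0 to 4, 0 to 2 and 2 to 5 calls on the deposited scale, and after quantile normalization 2 to 3, 2 to 4, 2 to 4, 1 to 3 and 4 to 6. The interaction gave 0 calls under every alternative run. Over all 23332 rows, the 4 comparisons gave 303, 436, 1009 and 765 calls on the deposited scale, 1923, 2328, 4008 and 4398 after quantile normalization, and 151, 174, 211 and 165 with a pseudocount of 1. Omitting single arrays moved these counts to 102 to 536, 169 to 918, 156 to 2532 and 88 to 2213 on the deposited scale and to 384 to 1706, 686 to 1582, 1281 to 4127 and 1389 to 3924 after quantile normalization, and the percentages of all rows move with them. Between the α3 and null lines, centring on array medians gave 1433 calls over all rows and scaling to a common median 1359. A pseudocount of 64 gave 309 there, the intensity trend 335 and the replicate block 276. Omitting the lowest 25% of rows gave 441 among the rows kept. Counts of all rows in the other comparisons under these settings are not given here. No gene of the 9 had a second row to try. The cause of these differences was not tested.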
